A study of Mus musculus with 16 samples.

Results

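Erythroid, heme and iron genes were followed across Affymetrix arrays of sorted mouse bone marrow cells. The set had 33 genes: 4 erythroid transcription factors, 10 genes of heme synthesis, 11 of iron handling and 8 that encode red cell products. Of these, 31 had a probe set annotated to that gene alone, out of 18194 such genes on the array, and of a gene's own probe sets the one brightest on average in the 16 arrays was used. Ahsp, the chaperone of alpha globin, had no probe set, and Ftl1, the ferritin light chain, had only probe sets annotated also to other loci. The values are the deposited linear intensities, in arbitrary units, so a level is set against other arrays of the same probe set and never against another gene.

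The 16 arrays formed 6 groups, all labelled as C57Bl6, female and from bone marrow, with RNA amplified from 4000 to 7000 cells sorted directly for extraction. Hematopoietic stem cells (HSC), the multipotent cells from which all blood arises, came from young wild type mice of 9 to 12 weeks (3 arrays), old wild type mice of 24 months (3 arrays), mutator mice of 32 weeks with the genotype Polgtm1Lrsn-/- (3 arrays) and mid-aged wild-type controls of 32 weeks with the genotype Polgtm1Lrsn+/+ (3 arrays). Common lymphoid progenitors (CLP) came from wild type mice of 8 to 12 weeks and were split by Ly6D, a surface protein, into Ly6D+ and Ly6D- cells (2 arrays each). Mutator mice carry an altered Polg, the polymerase of mitochondrial DNA, that lacks proofreading; the labels restrict this allele to no cell type, and these mice are known to become anaemic with age. The labels do not say whether an array pooled several animals, and the other sort markers are not known here, so p-values measure the spread between these arrays.

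Red cells are made when a progenitor under the control of Gata1 and its partners turns on Klf1, the globins and the heme pathway. Heme synthesis starts in the mitochondrion with the condensation of glycine and succinyl-CoA by Alas1, or by Alas2 in erythroid cells, passes through the cytosol and ends in the mitochondrion, where Fech inserts iron. Iron enters on transferrin through the receptor Tfrc, is sensed with the related receptor Tfr2, is stored in ferritin and leaves through ferroportin, the product of Slc40a1; the iron regulatory proteins Aco1 and Ireb2 adjust these transcripts, and iron-sulfur clusters made with Glrx5 and Isca1 are needed by both pathways.

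Array quality and labels differed between groups in ways that touch the results below. The log2 ratio of the 3′ to the 5′ actin probe sets, a sign of RNA quality or of short cDNA, was 4.74 to 5.25 in mutator and 4.24 to 5.26 in mid-aged control HSC, against 2.39 to 2.61 in young and 2.20 to 2.27 in old HSC, 2.11 to 2.52 in Ly6D- and 2.51 to 3.85 in Ly6D+ CLP. The mid-aged arrays therefore cannot be told apart from their lower RNA quality when they are set against young HSC. Xist, the RNA of the inactive X, read 9.12 to 16.8 and the Y-linked Eif2s3y 423 to 758 in 5 arrays, all 4 of CLP and mid-aged wild-type replicate 3, against 3507 to 11022 and 6.85 to 12.7 in the other 11. These 5 arrays went against their label of female, and sex cannot be told apart from cell type between CLP and young HSC. Young replicates 2 and 3 differed with an SD per array of 0.130 in log2, against 0.219 to 0.557 for other replicate pairs, so results were also computed with their mean as 1 sample. The markers of stem cells summed to 8262 to 21965 in HSC and 1071 to 1950 in CLP, and those of CLP to 121 to 328 in HSC and 16487 to 24840.5 in CLP. Ly6d itself read 10.9 to 32.3 in HSC, 23.0 to 54.7 in Ly6D- and 1126 to 1758 in Ly6D+ CLP, Il7r 11.04 to 28.8 in HSC and 2162 to 3930 in CLP, Slamf1 279.6 to 718 in HSC and 21.9 to 37.2 in CLP, and Kit 719.7 to 5399 in HSC and 250.5 to 588 in CLP.

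**Figure D1:**
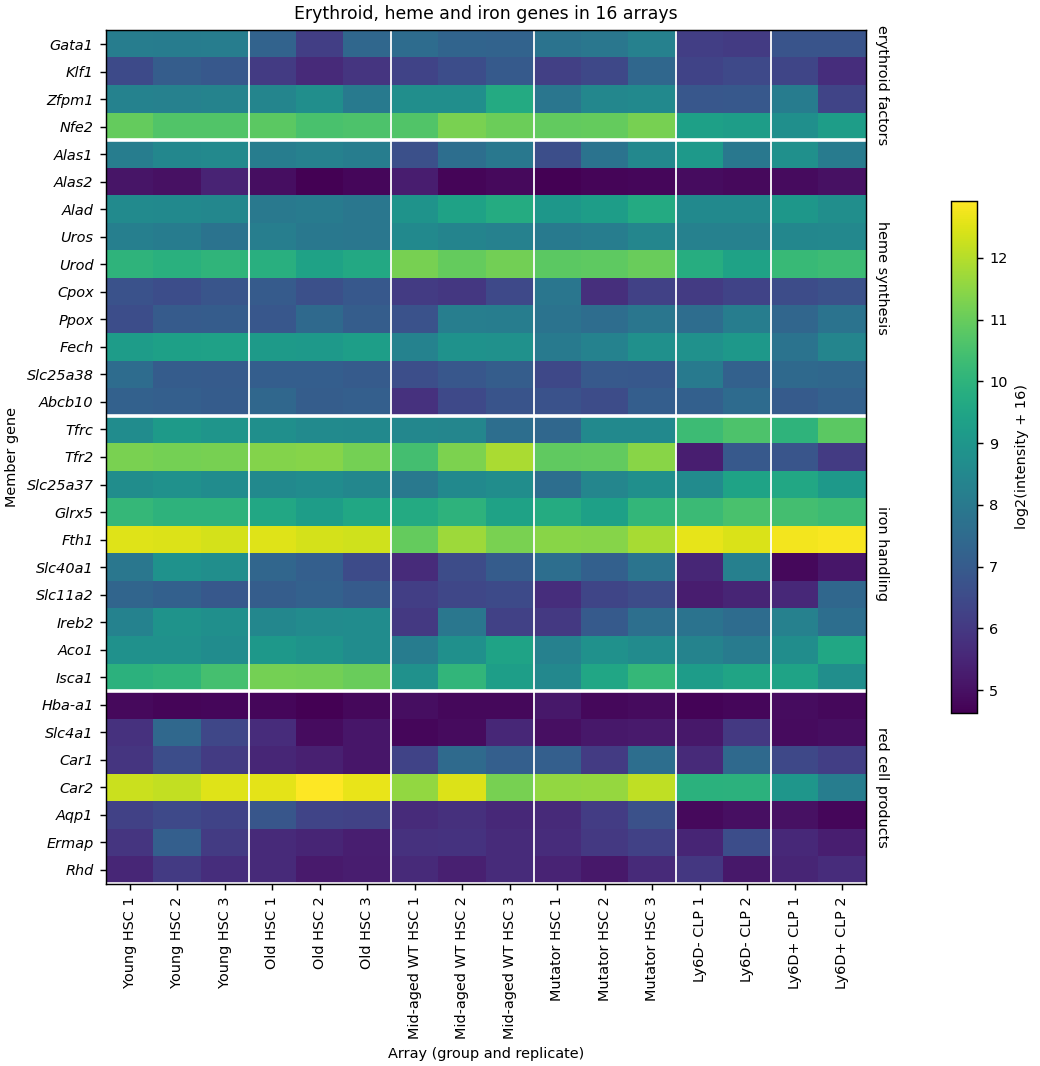
Heat map of the 31 measured members (rows, grouped by role) in the 16 arrays (columns, by group and replicate), coloured by log2(intensity + 16). Tfr2, Car2 and Nfe2 are brighter in the 12 HSC arrays than in the 4 CLP arrays, Tfrc is brighter in CLP, and Alas2 and Hba-a1 are dim in every group.

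Promoter sequences are shown for Tfr2 and Tfrc and for a pair of classic erythroid genes, Klf1 and Alas2, and not for every member that differs below. RefSeq windows from 250 bases before to 50 bases after an annotated start (build GRCm38.p6) were given for 24 of the 33 members, in 31 windows. Both strands were searched for AGATAA and TGATAA, letters that GATA factors can bind, and for CCACACCC, letters that Klf1 can bind; the gene strand was searched for CAGTGC and CAGTGT, the loop letters of iron-responsive elements. In the sequences below, the 250 bases before the start are printed 5′ to 3′ on the gene strand, and capitals mark a match on either strand. The Tfr2 window at chr5:137569590-137569839 (plus strand) holds CCACACCC in reverse, 22 bases before the start. A stretch of 30 bases at chr5:137570902-137570931 (plus strand), before another annotated Tfr2 start, holds TGATAA 61 bases before it. The Tfrc window at chr16:32608646-32608895 (plus strand) holds none of these letters. Nor do another Tfrc window, a further Tfr2 window and the windows of Gata1, Zfpm1 and Aqp1, which are not printed. The Klf1 window at chr8:84901732-84901981 (plus strand) holds TGATAA in reverse 80 bases before the start, and the Alas2 window at chrX:150547167-150547416 (plus strand) holds AGATAA in reverse 86 bases before it.
Tfr2, first start: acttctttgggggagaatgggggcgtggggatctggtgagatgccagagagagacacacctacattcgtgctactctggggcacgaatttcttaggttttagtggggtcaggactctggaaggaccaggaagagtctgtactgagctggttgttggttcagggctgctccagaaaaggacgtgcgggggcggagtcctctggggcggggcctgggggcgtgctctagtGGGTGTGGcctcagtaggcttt
Tfr2, another start: gcctgtcagggcTGATAAggggccctctag
Tfrc: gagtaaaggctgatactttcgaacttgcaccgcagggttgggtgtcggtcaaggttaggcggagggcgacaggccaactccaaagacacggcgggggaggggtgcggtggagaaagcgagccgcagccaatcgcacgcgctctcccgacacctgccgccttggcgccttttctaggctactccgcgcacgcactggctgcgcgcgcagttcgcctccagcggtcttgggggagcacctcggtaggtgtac
Klf1: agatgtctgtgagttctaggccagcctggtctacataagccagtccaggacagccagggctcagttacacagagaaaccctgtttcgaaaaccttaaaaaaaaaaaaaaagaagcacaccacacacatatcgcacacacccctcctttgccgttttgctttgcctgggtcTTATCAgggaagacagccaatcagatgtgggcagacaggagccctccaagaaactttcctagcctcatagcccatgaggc
Alas2: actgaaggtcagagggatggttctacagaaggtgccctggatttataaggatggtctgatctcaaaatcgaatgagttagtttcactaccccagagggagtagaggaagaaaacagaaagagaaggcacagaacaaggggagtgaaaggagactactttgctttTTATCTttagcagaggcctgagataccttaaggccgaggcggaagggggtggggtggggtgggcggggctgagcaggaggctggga

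Across the 31 member windows, 3 held AGATAA (9.68%) and 6 held TGATAA (19.4%), in Cpox, Ermap, Hba-a1, Klf1, Tfr2 and Uros. Among all 32851 windows of this length the shares were 11.2% and 9.05%. CCACACCC was in 1 member window (3.23%, against 3.56% of all windows), CAGTGC in 1, that of Ppox (3.23% against 9.32%), and CAGTGT in none (9.57% of all). The Ppox match lay 218 bases before the start. Iron-responsive elements are part of the transcribed RNA, of which a window holds the first 50 bases. These counts therefore cannot show whether a member has such an element. A match describes the letters only.

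Most members were read above a low cut of intensity in stem cells. Of the 31 members, 28 were above the array's 40th percentile of intensity on all 12 HSC arrays and 26 on all 16 arrays; the mean of that percentile was 17.8. This cut is a rank and not a measured background, and 13482 of all 18194 genes exceeded it on at least 3 HSC arrays. The share of all genes above it on all 12 was not counted. A gene called at background below was above the cut on no array of the group. The 5 below it on at least 1 array were Alas2, Slc40a1, Slc4a1, Aqp1 and the own probe set of Hba-a1. Alas2 read 8.76 to 27.9 and passed the percentile on 3 arrays. The probe set of Hba-a1 alone, for alpha globin, read 9.16 to 20.0, passed it on 1 array and was left out of every test, so 30 members were tested. All tests were limma fits on log2(intensity + 16) over all genes, 13482 in the 12 HSC arrays and 14344 in all 16 arrays, with Benjamini-Hochberg adjusted p under 0.05 as the threshold; ± after a log2 change is its standard error, and folds are on this scale, which understates changes of dim genes.

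The first question was whether the genes of erythroid specification follow age, the mutator genotype or the step to a lymphoid progenitor. Gata1, the master factor of erythroid and megakaryocyte development, fell in both CLP groups, and in HSC its intensity was ordered with young and mutator cells above mid-aged wild-type and old cells without passing the threshold. Gata1 read 268, 258 and 265 in young, 138, 55.4 and 151 in old, 171, 140.5 and 137 in mid-aged control and 205, 228 and 292 in mutator HSC, and 56.2 and 51.8 in Ly6D- and 94.0 and 94.98 in Ly6D+ CLP. All 3 old arrays lay below all young arrays, and all 3 mutator arrays above all mid-aged wild-type arrays. Against young HSC the log2 change was -1.998 ± 0.287 in Ly6D- CLP (limma adjusted p 0.000287) and -1.34 ± 0.287 in Ly6D+ CLP (adjusted p 0.00416). The change with age, -1.19 ± 0.275, had an adjusted p of 0.0651, and the change in mutator cells, 0.63 ± 0.275 with a 95% interval from 0.03 to 1.23, had an adjusted p of 0.668.

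Nfe2, which encodes a subunit of a factor that binds globin control regions and drives platelet formation, separated HSC from CLP. It read 1982, 1630.0 and 1626 in young, 1799, 1483 and 1554 in old, 1629, 2443 and 2128 in mid-aged control and 1924, 1961 and 2365 in mutator HSC, against 630.3 and 595 in Ly6D- and 413 and 587 in Ly6D+ CLP. The HSC groups overlapped, except that all mutator arrays were above all old arrays, and every CLP array was below every HSC array. Nfe2 fell in Ly6D- (-1.48 ± 0.202, adjusted p 0.000193) and in Ly6D+ CLP (-1.79 ± 0.202, adjusted p 3.09e-05). With age the change was -0.11 ± 0.176 and in mutator cells 0.02 ± 0.176.

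Zfpm1, the Gata1 cofactor Fog1, read 301, 297 and 304 in young, 321, 412 and 251 in old, 409, 408 and 811 in mid-aged control and 219, 339 and 363 in mutator HSC, and 103 and 104 in Ly6D- and 262 and 65.2 in Ly6D+ CLP. It fell in Ly6D- CLP (-1.41 ± 0.431, adjusted p 0.0301), but the adjusted p was 0.0677 to 0.117 when any 1 of the 5 arrays compared was left out. The Ly6D+ pair was split, one array near the HSC and one below the Ly6D- pair; the change was -1.07 ± 0.431 (adjusted p 0.0903), and without Ly6D+ replicate 1 it was -1.96 with an adjusted p of 0.00364. Mutator arrays all lay below mid-aged wild-type arrays (-0.75 ± 0.280, adjusted p 0.623).

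Klf1, the factor that turns on adult globin and heme genes, read 74.4, 119 and 105 in young and 51.1, 33.5 and 43.6 in old HSC, with no overlap. It read 63.4, 79.2 and 111 in mid-aged control and 58.1, 69.4 and 151 in mutator HSC, which overlapped, and 36.3 to 71.5 in the 4 CLP arrays. The change with age was -0.97 ± 0.296 (limma adjusted p 0.207), and no comparison of Klf1 passed in the main fits.

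**Figure D2:**
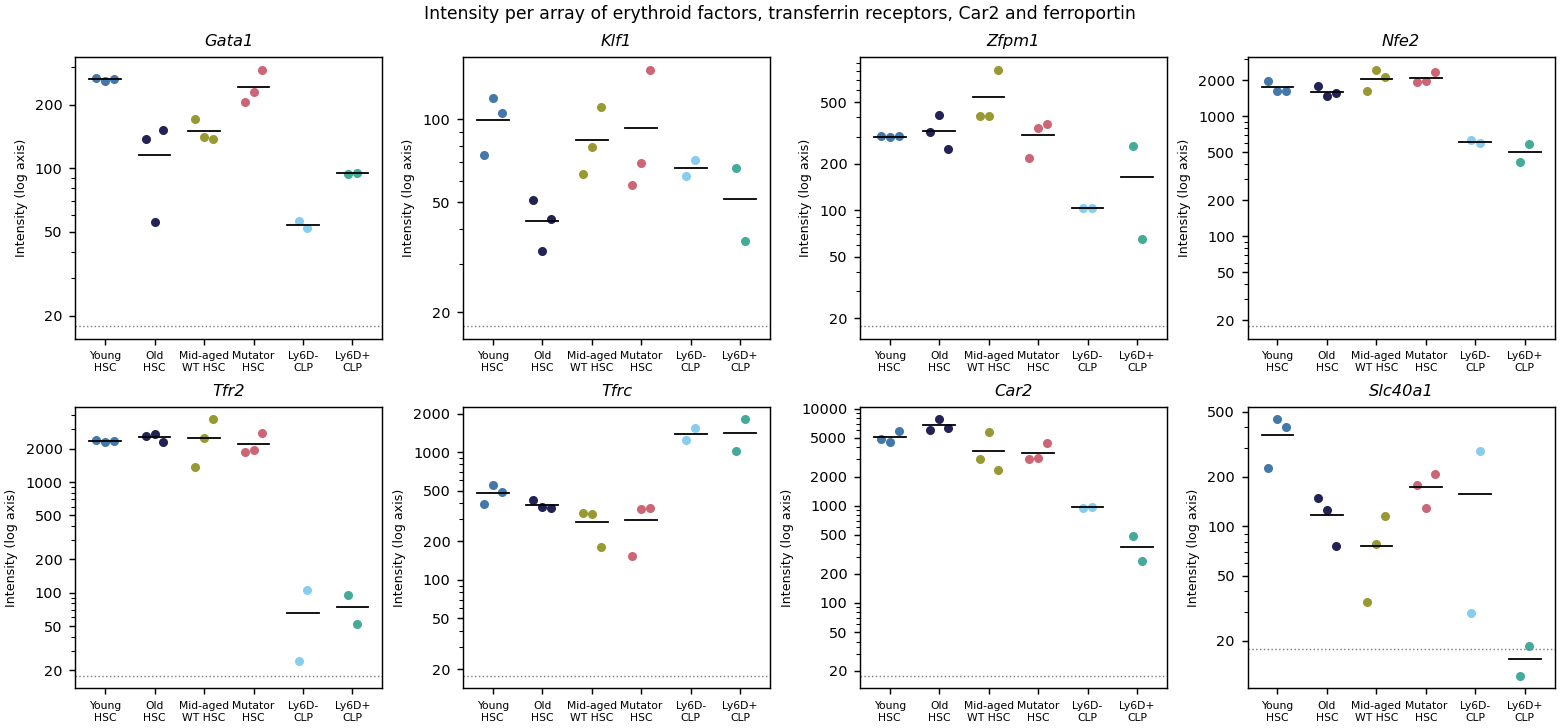
Intensity (log axis) of the 4 erythroid factors, Tfr2, Tfrc, Car2 and Slc40a1 on each array (points) with the group mean (bar); the dotted line is the mean 40th percentile of the arrays, 17.8. Tfr2 lies between 1361 and 3683 in HSC and between 23.9 and 106 in CLP, while Tfrc lies between 154 and 552 in HSC and between 1012 and 1798 in CLP.

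Of the 30 tested members, Tfr2 had the largest change between stem cells and lymphoid progenitors, and the transferrin receptors moved in opposite directions. Tfr2, the receptor that senses iron-loaded transferrin and associates with the erythropoietin receptor, read 2423, 2322 and 2366 in young, 2623, 2730.5 and 2292 in old, 1361, 2492 and 3683 in mid-aged control and 1886, 1949 and 2777 in mutator HSC. In CLP it read 23.9 and 106 (Ly6D-) and 96.2 and 51.9 (Ly6D+). No CLP array came near an HSC array. Against young HSC the change was -5.09 ± 0.439 (95% interval -6.04 to -4.14, adjusted p 3.42e-06) in Ly6D- CLP, a 34.1-fold difference, and -4.77 ± 0.439 (-5.72 to -3.82, adjusted p 4.76e-06) in Ly6D+ CLP, a 27.4-fold difference. A second Tfr2 probe set gave -2.37 and -2.03. Mid-aged wild-type replicate 3, whose Xist and Eif2s3y were like those of the CLP arrays, read 3683. No other HSC array was of this kind, and the part of sex in the Tfr2 values was not tested. Against all mid-aged wild-type arrays the fall in CLP was -4.90 ± 0.367 (limma adjusted p 5.59e-07). Between HSC groups Tfr2 had changes of 0.10 ± 0.293 with age, -0.10 ± 0.293 in mutator cells and -0.03 ± 0.293 from young to mid-aged cells.

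Tfrc, the receptor that brings iron into dividing cells, read 389.5, 552 and 484 in young, 422, 371 and 365 in old, 336, 329 and 179.6 in mid-aged control and 154, 358 and 364 in mutator HSC, and 1251 and 1541 in Ly6D- and 1012 and 1798 in Ly6D+ CLP. All CLP arrays were above all HSC arrays. Tfrc rose by 1.53 ± 0.363 (adjusted p 0.00810, 2.89-fold) in Ly6D- and by 1.49 ± 0.363 (adjusted p 0.00902, 2.81-fold) in Ly6D+ CLP against young HSC, and by 2.27 ± 0.304 (adjusted p 0.000111) in CLP against mid-aged wild-type HSC. With 1 CLP array per group the call was lost without Ly6D- replicate 2 (1.38, adjusted p 0.0668) and without Ly6D+ replicate 2 (1.08, adjusted p 0.108).

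Slc40a1, which encodes the iron exporter ferroportin, fell from young HSC to mid-aged wild-type HSC and to Ly6D+ CLP. It read 227, 447 and 405 in young, 148, 126 and 75.7 in old, 34.7, 78.3 and 115 in mid-aged control and 179, 129 and 208 in mutator HSC, and 29.5 and 286 in Ly6D- and 12.3 and 18.7 in Ly6D+ CLP. Young arrays were above all arrays of the other HSC groups, mutator arrays were above mid-aged wild-type arrays, and the arrays of the Ly6D- pair were far apart. The change from young HSC was -2.08 ± 0.363 (adjusted p 0.00246) in mid-aged wild-type HSC and -3.53 ± 0.621 (adjusted p 0.00112) in Ly6D+ CLP. The change to Ly6D- CLP was -1.63 ± 0.621 (adjusted p 0.0751), and without Ly6D- replicate 2 it was -2.99 (adjusted p 0.00171). With age the change was -1.49 ± 0.363 (adjusted p 0.0816) and in mutator cells 1.11 ± 0.363 (adjusted p 0.607).

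Macrophages that recycle red cells also express ferroportin, and macrophage marker RNA varied between arrays, in part in the same order as Slc40a1. The summed level of 10 macrophage markers was 394, 741 and 885 in young, 305, 254 and 248.8 in old, 332, 250.3 and 238 in mid-aged control and 308, 358 and 331 in mutator HSC, and 475 and 765 in Ly6D- and 334 and 619 in Ly6D+ CLP. Of these markers 9 were above the 40th percentile on all young arrays, 6 on all old arrays, where C1qa, C1qb, C1qc and Mrc1 were at background, 7 on all mid-aged wild-type arrays, 6 on all mutator and Ly6D- arrays and 5 on all Ly6D+ arrays. The young arrays were the highest of the HSC in both Slc40a1 and this sum. Within the old, Ly6D- and Ly6D+ groups the arrays had the same order in both. Among mid-aged wild-type arrays the order was reversed, and the mutator array with the highest sum had the lowest Slc40a1 of its group. The Ly6D+ arrays had the lowest Slc40a1 of all arrays, with sums of 334 and 619. Against young HSC, 1 of the 10 macrophage markers was higher in Ly6D- CLP (median log2 change -0.31, highest 1.39). In Ly6D+ CLP 1 of 10 was higher (median -0.41, highest 1.03). The macrophage sums in CLP therefore do not stand for the list as a whole. The part of macrophage RNA in the Slc40a1 values was not tested. In these bulk samples, fewer cells of a type and less RNA per cell cannot be told apart.

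Fth1, the ferritin heavy chain, read 5811, 5678 and 5309 in young, 5805, 5369 and 5092 in old, 1956, 3335 and 2446 in mid-aged control and 2795, 2708 and 3600.2 in mutator HSC, and 6189 and 5614 in Ly6D- and 6951 and 7381 in Ly6D+ CLP. Both mid-aged groups lay below every other array. Fth1 fell from young to mid-aged wild-type HSC (-1.15 ± 0.192, adjusted p 0.00203) and rose in CLP against mid-aged wild-type HSC (1.36 ± 0.168, adjusted p 5.59e-05), and neither CLP group passed against young HSC (0.08 ± 0.201 and 0.36 ± 0.201).

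Ireb2, an iron regulatory protein, read 302, 456 and 417 in young, 337, 377 and 393 in old, 47.7, 227 and 59.4 in mid-aged control and 47.9, 109 and 188 in mutator HSC, and 206 and 173 in Ly6D- and 291 and 182 in Ly6D+ CLP. It fell from young to mid-aged wild-type HSC (-1.93 ± 0.486, adjusted p 0.0145), with an adjusted p of 0.0501 to 0.0548 when young replicate 2 or 3, or mid-aged wild-type replicate 1 or 3, was left out. Slc11a2, the iron importer DMT1, read 146, 127 and 105 in young, 119.9, 132 and 112 in old, 56.1, 68.2 and 73.7 in mid-aged control and 36.0, 66.4 and 78.9 in mutator HSC, and 23.5 and 28.4 in Ly6D- and 32.3 and 154 in Ly6D+ CLP. It fell from young to mid-aged wild-type HSC (-0.79 ± 0.214, adjusted p 0.0208) and to Ly6D- CLP (-1.75 ± 0.395, adjusted p 0.00602). The first call was lost without young replicate 1 (adjusted p 0.0797), young replicate 2 (0.0645) or mid-aged wild-type replicate 1 (0.0563), and the second with the mean of all Slc11a2 probe sets (-0.48, adjusted p 0.0624). Ly6D+ replicate 2 read above every HSC array. Without it the Ly6D+ change against young HSC was -1.55, against -0.64 ± 0.395 (limma adjusted p 0.279) with it.

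Slc25a37, the mitochondrial iron importer mitoferrin-1, read 399.6, 434 and 389 in young, 364, 390.1 and 339 in old, 234, 361 and 399 in mid-aged control and 180.1, 328 and 416 in mutator HSC, and 384 and 673 in Ly6D- and 763 and 542 in Ly6D+ CLP. Glrx5, a glutaredoxin of iron-sulfur cluster transfer, read 1129.8, 1009.6 and 999 in young, 765, 597 and 751 in old, 808, 998 and 665 in mid-aged control and 842, 636 and 1103 in mutator HSC, and 1235 and 1464 in Ly6D- and 1375 and 1254 in Ly6D+ CLP. Both rose in CLP against mid-aged wild-type HSC only at the edge of the threshold (0.79 ± 0.271, adjusted p 0.0434, and 0.70 ± 0.189, adjusted p 0.0141). The first was lost without mid-aged wild-type replicate 1 (0.166) or 2 (0.0586), Ly6D+ replicate 1 (0.120) or Ly6D- replicate 2 (0.138), and the second without mid-aged wild-type replicate 3 (0.0685), these being adjusted p.

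Isca1 and Aco1 passed in no comparison in the main fits. Isca1, a carrier of iron-sulfur clusters, read 979.7, 1057 and 1398 in young and 2318, 2269.8 and 2055 in old HSC, without overlap, with a change of 0.96 ± 0.390 (adjusted p 0.442). It read 343 to 1131 in the mid-aged HSC and 405 to 689.6 in CLP. Aco1 read 251 to 747 over all arrays. Ftl1 could be read only from probe sets annotated also to its pseudogene Ftl1-ps2; the brighter 2 of 3 such probe sets gave young HSC means of 855 ± 78.2 and 902 ± 118, old means of 1029 ± 179 and 1154 ± 198, mid-aged control means of 607 ± 225 and 440.1 ± 197 and mutator means of 542 ± 22.5 and 379 ± 21.2 (SD, n = 3 each). In CLP they gave 971 ± 239 and 771 ± 150.2 in Ly6D- and 644 ± 272 and 558 ± 251 in Ly6D+ cells (SD, n = 2 each). The third, annotated also to microRNA genes, was higher rather than lower on average in the mid-aged groups, with 86.8 ± 13.4 in young, 114 ± 37.2 in mid-aged control and 114 ± 17.0 in mutator HSC.

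Of the heme synthesis genes, in the main fits only Fech passed between young HSC and a CLP group, and Urod, Alad, Abcb10 and Slc25a38 passed between mid-aged wild-type HSC and CLP. Urod, the decarboxylase that makes coproporphyrinogen, read 1013, 944 and 1045 in young, 903, 661 and 784 in old, 2346, 1991 and 2258 in mid-aged control and 1818, 1843 and 2079 in mutator HSC, and 868 and 669 in Ly6D- and 1170.4 and 1246 in Ly6D+ CLP. All 6 mid-aged arrays were above all other arrays. Urod rose from young to mid-aged wild-type HSC (1.12 ± 0.147, adjusted p 0.000620) and fell in CLP against mid-aged wild-type HSC (-1.18 ± 0.138, adjusted p 3.60e-05). A dimmer probe set of Urod went the other way from young to mid-aged cells (-0.48), and the mean of both gave 0.32 with an adjusted p of 0.152.

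Alad, which joins the first heme precursors into a ring, read 375, 364 and 335 in young, 235, 253 and 225 in old, 460.0, 659 and 836 in mid-aged control and 500.1, 588 and 819.9 in mutator HSC, and 362 and 366 in Ly6D- and 499 and 410.4 in Ly6D+ CLP. The old arrays were the lowest and the mid-aged HSC arrays mostly the highest. Alad rose from young to mid-aged wild-type HSC (0.80 ± 0.222, adjusted p 0.0230) and fell in CLP against mid-aged wild-type HSC (-0.62 ± 0.197, adjusted p 0.0314). The first call was lost without young replicate 1 (adjusted p 0.0543), 2 (0.0637) or 3 (0.0803) or mid-aged wild-type replicate 3 (0.0805), and the second without mid-aged wild-type replicate 2 (0.0742) or 3 (0.148), Ly6D+ replicate 2 (0.0858) or Ly6D- replicate 1 (0.0614) or 2 (0.0576).

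Fech, the ferrochelatase that completes heme, read 583, 636 and 655 in young, 552, 523 and 607 in old, 299.8, 446 and 438 in mid-aged control and 240.2, 303 and 426 in mutator HSC, and 434 and 514 in Ly6D- and 205 and 324 in Ly6D+ CLP. It fell from young to Ly6D+ CLP (-1.22 ± 0.248, adjusted p 0.00292), and to mid-aged wild-type HSC near the threshold (-0.66 ± 0.210, adjusted p 0.0399). The second call was lost without young replicate 1 (adjusted p 0.0745), 2 (0.108) or 3 (0.119) or mid-aged wild-type replicate 1 (0.114) or 3 (0.0508). The other 3 probe sets of Fech gave -1.39, -0.39 and 0.25 in that comparison.

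Abcb10, a mitochondrial transporter that stabilises mitoferrin-1, read 132, 124 and 116 in young, 152, 118 and 124 in old, 40.2, 71.9 and 95.01 in mid-aged control and 89.4, 79.1 and 122 in mutator HSC, and 127 and 168 in Ly6D- and 114 and 131 in Ly6D+ CLP. It fell from young to mid-aged wild-type HSC (-0.77 ± 0.233, adjusted p 0.0330) and rose from there to CLP (0.87 ± 0.211, adjusted p 0.00767). The first call was lost without young replicate 1 (adjusted p 0.0958), 2 (0.0878) or 3 (0.0733) or mid-aged wild-type replicate 1 (0.0795), and both other probe sets gave 0.19. The second call was lost with the mean of all probe sets (0.19, adjusted p 0.232) and in a fit of only the groups compared (adjusted p 0.0884). Slc25a38, the glycine importer of the mitochondrion, read 172, 117 and 112 in young, 123, 121 and 112 in old, 83.0, 103 and 119 in mid-aged control and 69.4, 106 and 105 in mutator HSC, and 246 and 130.01 in Ly6D- and 162 and 154 in Ly6D+ CLP. It rose in CLP against mid-aged wild-type HSC (0.66 ± 0.214, adjusted p 0.0338), with an adjusted p of 0.0591 to 0.113 without mid-aged wild-type replicate 1 or 2, either Ly6D+ replicate or Ly6D- replicate 1.

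The other 5 heme genes passed in no comparison in the main fits. With the mean of all probe sets, Ppox passed from young to mid-aged wild-type HSC and in both CLP groups against young HSC, and Cpox in Ly6D- CLP. Ppox also passed from young to mid-aged wild-type HSC without mid-aged wild-type replicate 1. Alas1 and Uros each passed in some comparison under other settings, and Alas2 did not. Alas1, the housekeeping first enzyme, read 269.6, 335 and 352 in young and 269, 294 and 268 in old HSC, 82.3 to 346 in the mid-aged HSC and 231 to 529 in CLP. Uros read 205 to 365, Cpox 37.7 to 220.2 and Ppox 80.3 to 270.4 over all arrays. Alas2, the erythroid first enzyme, had no array above 27.9.

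**Figure D3:**
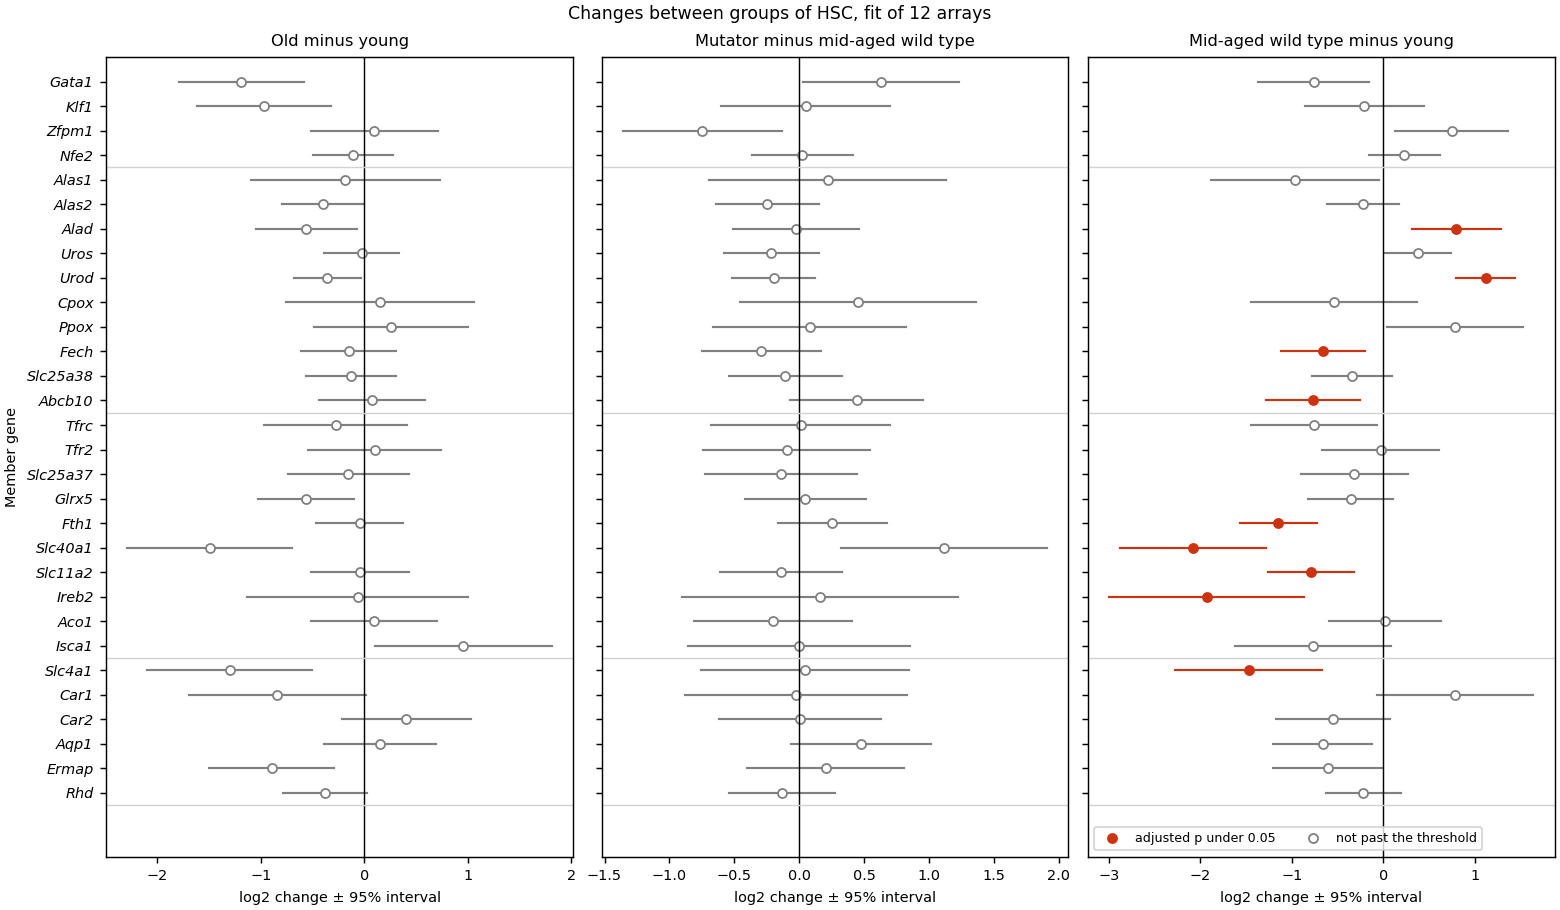
Log2 change (point) with its 95% interval (line) of the 30 tested members between groups of HSC, from 1 limma fit of 12 arrays; filled points passed an adjusted p of 0.05 and the panels have their own scales. Filled points are in the panel of mid-aged wild-type against young cells, from Slc40a1 at -2.08 to Urod at 1.12.

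Of the red cell products, Car2 and Aqp1 fell in both CLP groups. Car2, a carbonic anhydrase of red cells that HSC also express, read 4862, 4518 and 5887 in young, 6079, 7734 and 6383 in old, 3059.6, 5680.3 and 2353 in mid-aged control and 3044, 3088 and 4408 in mutator HSC, and 953 and 973 in Ly6D- and 492 and 269 in Ly6D+ CLP. Old arrays were above young arrays (0.40 ± 0.284, adjusted p 0.939), and every CLP array was below every HSC array. Car2 fell against young HSC in Ly6D- (-2.37 ± 0.331, adjusted p 0.000227, 5.18-fold) and in Ly6D+ CLP (-3.74 ± 0.331, adjusted p 3.31e-06, 13.3-fold). Between the CLP groups Ly6D+ cells were lower by an amount that did not pass (-1.36 ± 0.363, adjusted p 0.0715), and without Ly6D+ replicate 1 the change was -1.78 with an adjusted p of 0.0328.

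Aqp1, the water channel of the red cell membrane, read 58.9, 72.0 and 63.3 in young, 99.3, 65.2 and 60.1 in old, 34.7, 38.9 and 31.5 in mid-aged control and 33.5, 53.4 and 87.9 in mutator HSC, against 12.4 and 15.6 in Ly6D- and 15.98 and 11.6 in Ly6D+ CLP, where it was below the 40th percentile. It fell in Ly6D- (-1.43 ± 0.260, adjusted p 0.00160) and Ly6D+ CLP (-1.44 ± 0.260, adjusted p 0.00139) against young HSC, and in CLP against mid-aged wild-type HSC (-0.77 ± 0.218, adjusted p 0.0179). The last call was lost without mid-aged wild-type replicate 2 (adjusted p 0.0530).

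Slc4a1, the anion exchanger band 3 of red cells, read 40.05, 156 and 67.9 in young, 35.4, 14.2 and 18.7 in old, 11.6, 13.1 and 31.3 in mid-aged control and 15.05, 19.5 and 21.6 in mutator HSC, and 20.0 and 48.5 in Ly6D- and 13.5 and 14.5 in Ly6D+ CLP. The young arrays were above all other HSC arrays, and young replicate 2 stood apart from the rest. Slc4a1 fell from young to mid-aged wild-type HSC (-1.47 ± 0.365, adjusted p 0.0135) and to Ly6D+ CLP (-1.64 ± 0.409, adjusted p 0.0105). The second call was lost without Ly6D+ replicate 1 (adjusted p 0.0565). With the mean of all Slc4a1 probe sets both calls were lost (adjusted p 0.0670 and 0.0512). With age the change was -1.30 ± 0.365 (adjusted p 0.155).

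Alpha globin RNA could be followed only through probe sets annotated to both Hba-a1 and Hba-a2, whose transcripts cannot be told apart. The brightest of them read 523, 1836 and 2090.3 in young, 273, 70.1 and 163 in old, 263, 178 and 1813 in mid-aged control and 339.7, 1184 and 1392 in mutator HSC, and 189 and 4412 in Ly6D- and 236 and 155 in Ly6D+ CLP. Arrays of the same group differed widely, most of all in Ly6D- CLP, and all old arrays were below all young arrays. Car1, another carbonic anhydrase, read 43.4, 81.1 and 51.4 in young and 30.1, 25.5 and 19.3 in old HSC, 51.3 to 183 in the mid-aged HSC and 32.6 to 160.2 in CLP. Ermap, a membrane protein of erythroid cells, read 44.6, 124 and 51.4 in young and 33.6, 28.6 and 24.3 in old HSC, and Rhd, the Rhesus protein, 19.7 to 49.3 over all arrays.

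Neutrophil marker RNA, a possible sign of other cells or of free RNA in the sort, varied on the same arrays. The sum of 9 neutrophil markers was 1337, 5733 and 2022 in young, 1569, 181 and 207 in old, 513, 1747 and 6476 in mid-aged control and 476, 3932 and 5323 in mutator HSC, and 4592 and 7896 in Ly6D- and 1843 and 2388 in Ly6D+ CLP. Of these markers 8 were above the 40th percentile on all young arrays, 6 on all old and mid-aged wild-type arrays, 5 on all mutator and Ly6D- arrays and 4 on all Ly6D+ arrays. Mmp8 was at background in every group except mid-aged wild-type HSC. Against young HSC, 2 of the 8 tested markers were higher in Ly6D- CLP (median log2 change -0.28, highest 3.73). In Ly6D+ CLP 1 of 8 was higher (median -2.41, highest 2.71). A high sum in CLP therefore does not stand for the list as a whole. In the old, mid-aged wild-type, mutator and Ly6D- groups the array with the highest sum also had the highest globin, and in the young and Ly6D+ groups it did not. The part of such RNA in the red cell transcripts was not tested.

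**Figure D4:**
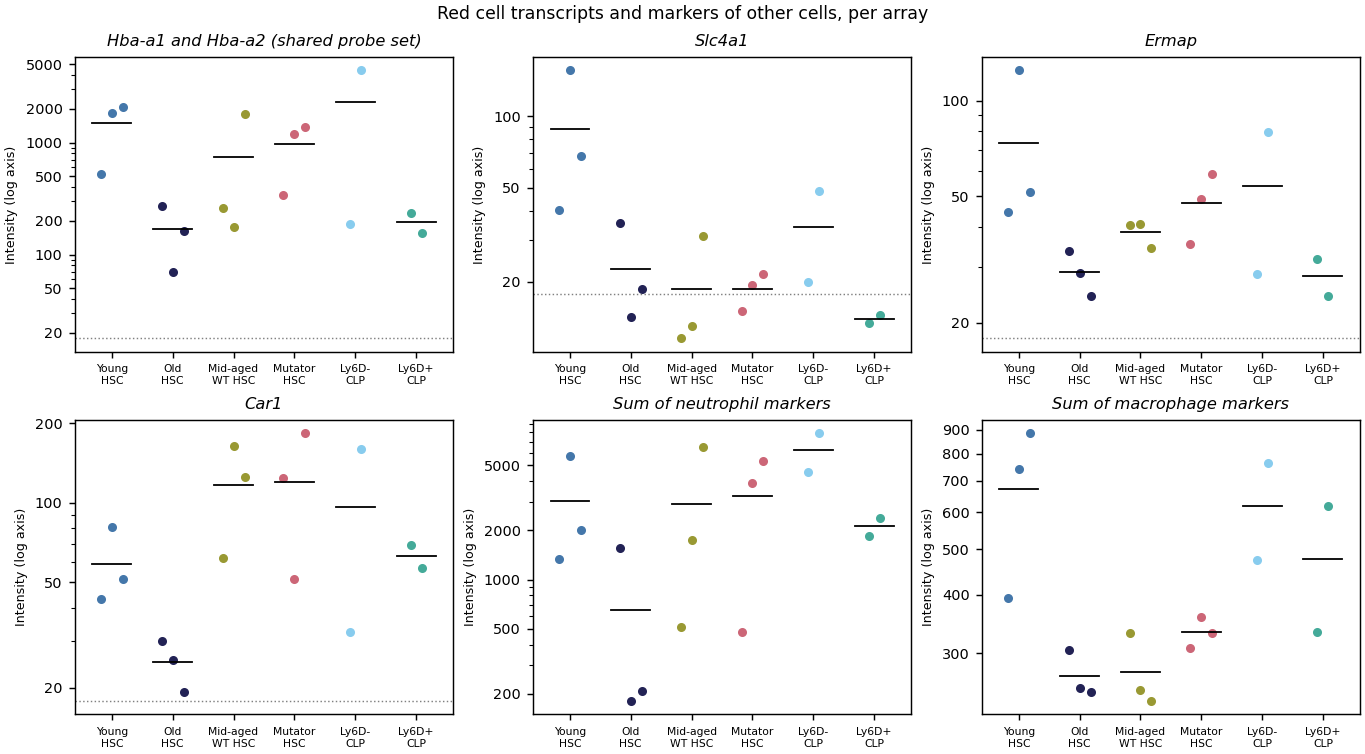
Intensity (log axis) of red cell transcripts on each array (points) with the group mean (bar), beside the summed intensity of 9 neutrophil and 10 macrophage markers; the dotted line in the gene panels is the mean 40th percentile of the arrays, 17.8. Globin is highest in Ly6D- CLP replicate 2 (4412), young replicates 3 (2090) and 2 (1836) and mid-aged wild-type replicate 3 (1813). Their neutrophil sums, in this order, are 7896, 2022, 5733 and 6476.

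Set against all genes, the members were counted comparison by comparison. With age, none of the 30 tested members passed, where 1.31% of all genes did, and 10 had an unadjusted p under 0.05 (9.03% of all genes did). The members had a median log2 change of -0.14, against -0.01 for all genes, and 10 were lower without overlap of arrays (Gata1, Klf1, Alas2, Alad, Urod, Glrx5, Slc40a1, Slc4a1, Car1 and Ermap), where 13.2% of all genes were. Alas2, which is in both of these counts, was tested only through young replicates 1 and 3 (18.4 and 27.9) and mid-aged wild-type replicate 1 (23.3). Its old arrays read 8.92 to 14.6, below the 40th percentile, so its difference lies at the floor and carries no weight here. Isca1 and Car2 were higher without overlap, where 14.0% of all genes were. In a fit of just these 6 arrays, whose spread is not pooled with that of the mid-aged groups, 6 members passed, where 7.37% of all genes did. Alad (-0.56, adjusted p 0.0140), Car1 (-0.84, 0.0387), Glrx5 (-0.57, 0.0333), Klf1 (-0.97, 0.0176) and Slc40a1 (-1.49, 0.0215) fell and Isca1 (0.96, 0.00806) rose, and Gata1 was just outside (-1.19, 0.0516).

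In mutator against mid-aged wild-type HSC, the comparison of the Polg genotype at matched age, no gene passed the limma fit (0%), and 3 members had an unadjusted p under 0.05 (Gata1, Zfpm1 and Slc40a1), where 7.30% of all genes did. The members' median change was 0.01 against -0.00 for all genes. Gata1 and Slc40a1 were higher in all 3 mutator arrays than in any mid-aged wild-type array (3.11% of all genes were), and Zfpm1 was lower (2.97%). The 95% intervals of the other factors and receptors were wide: -0.60 to 0.70 for Klf1, -0.74 to 0.55 for Tfr2 and -0.68 to 0.70 for Tfrc. Without mid-aged wild-type replicate 2, 222 genes passed, and no member did. Xist and Eif2s3y of mid-aged wild-type replicate 3 went against its label of female, and those of the mutator arrays did not. Without this array 1 gene passed, and no member did. Polg itself read 65.9, 125 and 109.9 in mutator and 113, 163 and 153 in mid-aged wild-type HSC.

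Whether the mutator effect differed from that of age was tested as the difference of both changes. No member passed (0.512% of all genes did), and 5 had an unadjusted p under 0.05, all positive, where 7.74% of all genes did. Slc40a1 had a difference of 2.61 ± 0.514 (adjusted p 0.0572) and Gata1 of 1.82 ± 0.389 (adjusted p 0.0754), since both were lower with age and higher in mutator cells; Klf1, Slc4a1 and Ermap had 1.02 ± 0.419, 1.35 ± 0.516 and 1.10 ± 0.389. Slc40a1 passed without mid-aged wild-type replicate 1 (adjusted p 0.0468) or 3 (0.0337), and Gata1 without old replicate 2 (1.43, adjusted p 0.0452).

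From young to mid-aged wild-type HSC, 9 of 30 members passed, 2 higher and 7 lower, where 24.2% of all genes passed, 6.42% higher and 17.7% lower. Of the heme synthesis genes 2 rose and 2 fell of 10, of the iron genes 4 fell of 10, of the red cell products 1 fell of 6, and no erythroid factor passed. Under other settings some factors did. Gata1 (-0.76 in the main fit) passed after median centring, with a pseudocount of 64 and in a fit of the groups compared alone. Nfe2 and Zfpm1 passed after quantile normalization, and Zfpm1 also without mid-aged wild-type replicate 2. The count of members was 5 without young replicate 1, 4 without replicate 2 and 5 without replicate 3, and 5 with young replicates 2 and 3 averaged, where 16.4%, 15.2%, 15.2% and 15.1% of all genes passed. The share of lower calls among all genes was 73.4%, and 58.8% after quantile normalization, under which 5 members were higher and 6 lower.

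**Figure D5:**
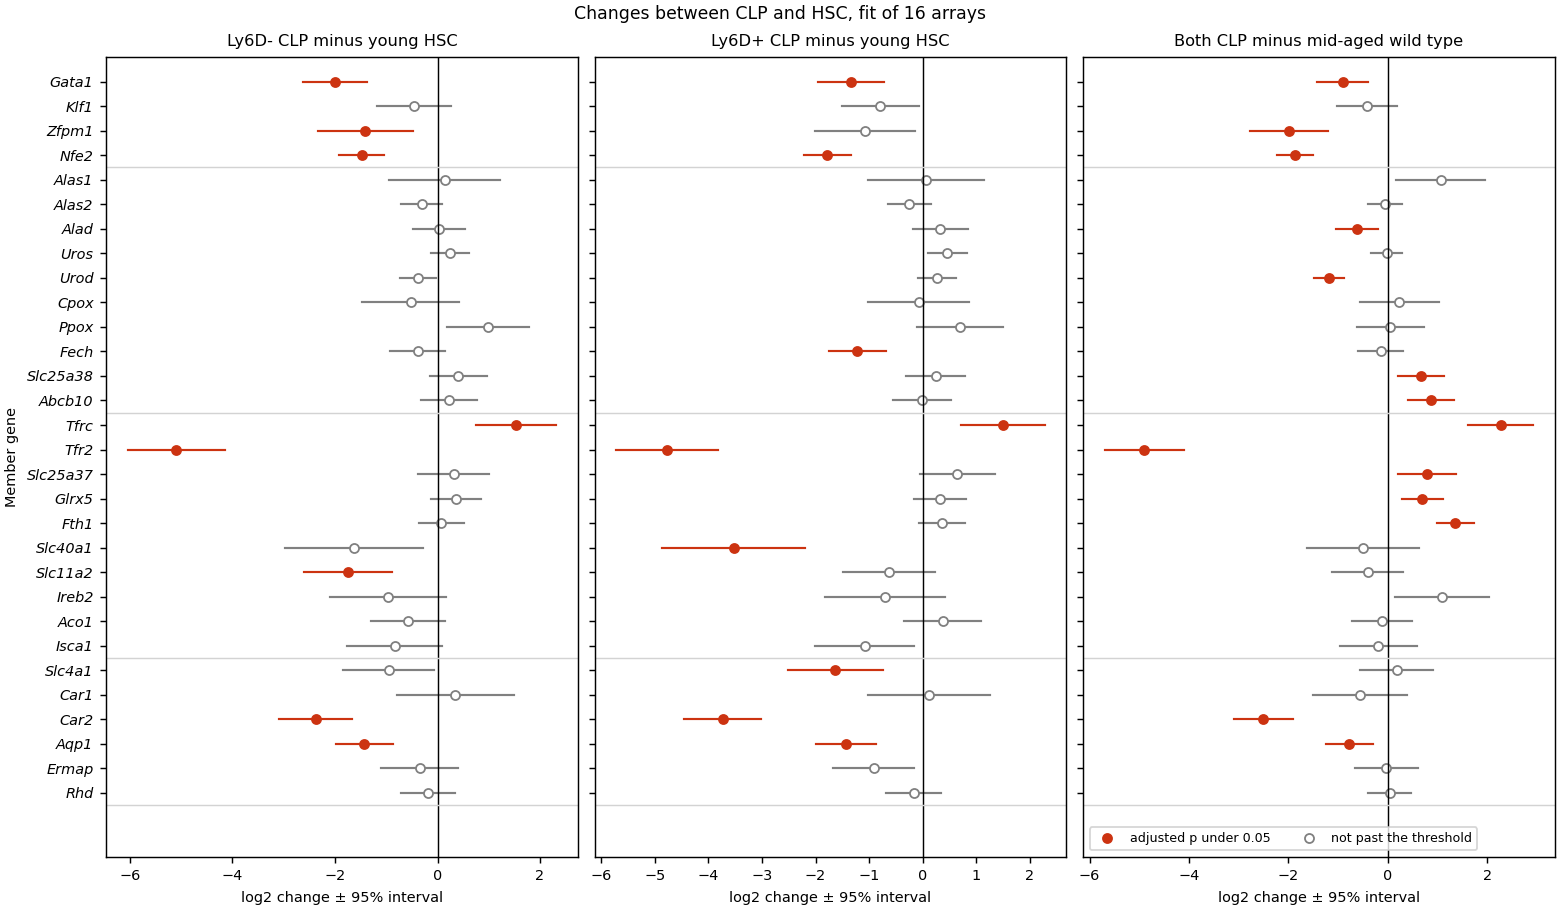
Log2 change (point) with its 95% interval (line) of the 30 tested members between CLP and HSC, from 1 limma fit of 16 arrays; filled points passed an adjusted p of 0.05 and the panels have their own scales. Tfr2 is lowest in all panels, between -5.09 and -4.77, Car2 is the next lowest, and Tfrc is the highest filled point in all of them.

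Against young HSC, 8 members passed in Ly6D- CLP, where 24.4% of all genes did (9.55% higher and 14.9% lower), and 9 in Ly6D+ CLP, where 24.3% did (10.4% higher and 13.9% lower); both comparisons share the young arrays. In Ly6D- cells 3 of 4 erythroid factors, 2 of 10 iron genes and 2 of 6 red cell products fell, Tfrc rose and no heme synthesis gene passed. Gata1, Nfe2 and Zfpm1 also serve megakaryocytes, and the sum of 7 megakaryocyte markers was 2560 to 3077 in young HSC, 170 to 241 in Ly6D- and 216 to 291 in Ly6D+ CLP, with 5 of 7 lower in each CLP group; Ppbp and Vwf were at background in both. The part of megakaryocyte RNA in the values of these factors was not tested. In Ly6D+ cells 2 factors, Fech, 2 iron genes and 3 red cell products fell and Tfrc rose. Against mid-aged wild-type HSC, 14 members passed, 6 higher and 8 lower, where 28.0% of all genes did, 15.8% higher and 12.2% lower. The 3′ to 5′ actin ratios of these mid-aged arrays were all above those of the CLP arrays, so RNA quality cannot be told apart from cell type here either. Between Ly6D+ and Ly6D- CLP none passed (2.68% of all genes did), and 6 had an unadjusted p under 0.05 (13.0% of all genes); the largest of these were Slc40a1 (-1.90 ± 0.680, adjusted p 0.208) and Car2, and Urod was higher in both Ly6D+ arrays (0.65 ± 0.181, adjusted p 0.0856).

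Other genes of the pathways were read from lists that leave out the members. Of 16 other erythroid factors and receptors, 7 passed in Ly6D- CLP, 2 higher and 5 lower, and 6 in Ly6D+ CLP, 1 higher and 5 lower; of all genes 24.4% and 24.3% passed there, and 24.2% from young to mid-aged wild-type HSC and 28.0% from there to CLP, the shares against which the counts of every list below stand. Tal1, which works in a complex with Gata1, fell in Ly6D- (-2.70 ± 0.241) and Ly6D+ CLP (-3.28 ± 0.241), as did Gfi1b, a repressor needed for red cells and platelets (-1.78 ± 0.355 and -2.35 ± 0.355), and Bach1, the heme-sensing repressor (-2.60 ± 0.439 and -2.61 ± 0.439). Lyl1, a relative of Tal1, rose by 1.95 ± 0.178 and 1.53 ± 0.178. Lmo2, a bridging subunit of the Tal1 complex, fell in Ly6D+ cells (-1.87 ± 0.286) and was the listed gene that passed between the CLP groups (-1.36 ± 0.314, adjusted p 0.0362).

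From young to mid-aged wild-type HSC, 5 of these 16 passed: 4 fell, among them Bach1 (-1.38 ± 0.128), Stat5b (-1.91 ± 0.327) and Myb (-0.74 ± 0.152), and Lyl1 (0.67 ± 0.173) rose. In CLP against mid-aged wild-type HSC 10 passed, 5 each way, with Tal1 at -2.43 ± 0.201, Lyl1 at 1.07 ± 0.149, Klf3 at 1.85 ± 0.290 and Gfi1b at -1.63 ± 0.297. Of the 56 tested genes in all these lists, none passed limma's threshold with age or in mutator cells, where 1.31% and 0% of all genes did. An unadjusted p under 0.05 was found for 1 of the 56 with age (9.03% of all genes) and for 6 in mutator cells (7.30% of all genes).

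Of 13 tested genes for other heme enzymes and carriers, 5 passed in Ly6D- CLP, all lower, and 5 in Ly6D+ CLP, 2 higher and 3 lower. Abcg2, a transporter that exports porphyrins and marks stem cells, fell in both (-2.61 ± 0.273 and -3.49 ± 0.273). In Ly6D- cells Hccs (-1.11 ± 0.310), Clpx (-1.75 ± 0.537) and Blvrb (-1.15 ± 0.368) also fell; in Ly6D+ cells Cox10 (0.84 ± 0.201) and the heme oxygenase Hmox2 (0.62 ± 0.200) rose and Slc48a1 (-1.22 ± 0.357) fell. From young to mid-aged wild-type HSC 4 fell: Clpx (-1.90 ± 0.362), Blvra (-1.17 ± 0.271), Abcg2 (-0.98 ± 0.253) and the heme exporter Flvcr1 (-0.89 ± 0.241). In CLP against mid-aged wild-type HSC 1 rose, Hmox2 (1.08 ± 0.167), and 4 fell, among them Abcg2 (-2.07 ± 0.229), Tspo (-1.25 ± 0.229) and Slc48a1 (-1.35 ± 0.299).

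Of the other iron and iron-sulfur genes, 17 were tested against CLP and 3 passed in Ly6D- cells, below the share of all genes, and 6 in Ly6D+ cells. The mitochondrial iron importer mitoferrin-2, Slc25a28, rose by 1.31 ± 0.268 in Ly6D- and by 1.65 ± 0.268 in Ly6D+ CLP, and Pcbp2, an iron chaperone, by 0.72 ± 0.173 and 0.89 ± 0.173. The ferredoxin Fdx1 fell in Ly6D- cells (-1.27 ± 0.302), and in Ly6D+ cells Steap3, a reductase of endosomal iron, rose (1.23 ± 0.310) and Fbxl5, the ligase that removes Ireb2, fell (-1.35 ± 0.357). From young to mid-aged wild-type HSC 5 of 16 fell, among them Pcbp1 (-0.75 ± 0.183), Hscb (-1.35 ± 0.358), Fdx1 (-0.90 ± 0.257) and Nfs1 (-0.88 ± 0.269). In CLP against mid-aged wild-type HSC Pcbp2 (1.13 ± 0.144), Slc25a28 (0.78 ± 0.224) and Nfs1 (0.91 ± 0.266) rose and none fell. Of 11 other red cell membrane and enzyme genes, Bpgm, which makes the 2,3-bisphosphoglycerate of red cells, and Rhag fell in both CLP groups (-2.09 ± 0.352 and -1.52 ± 0.352 for Bpgm, -1.39 ± 0.436 and -1.53 ± 0.436 for Rhag) and in mid-aged wild-type HSC (-0.87 ± 0.237 and -1.23 ± 0.412).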

How the data were processed

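Expression was measured on Affymetrix arrays in 16 samples of 6 groups, each array a labelled biological replicate. The deposited values were linear intensities of 45101 probe sets; how the authors summarised and scaled them is not given in the sources used here, and array medians ran from 24.6 to 29.8. Probe sets were named through the platform's annotation: 34958 had 1 gene symbol, 932 several and 9211 none. Each gene was read from its probe set of highest mean log2(intensity + 16), and genes had to exceed the array's 40th percentile on at least 3 of 12 HSC arrays or 2 of 16 arrays. A model with a mean per group was fitted in R 4.3.3 by limma 3.58.1, using lmFit and eBayes, and p-values were adjusted over all genes by Benjamini-Hochberg. The HSC comparisons used the 12 HSC arrays and those with CLP all 16, so each shares 1 estimate of the spread. The script was tested on simulated data. Arrays give no counts, and their number limits the precision.

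The members and lists were chosen with earlier results of these data known. Named with values on every array were the members past the threshold in any comparison and the member of the highest mean in each role; of other lists, up to 4 members past the threshold per comparison, smallest p first; Polg, Xist, Eif2s3y, Kit, Slamf1, Ly6d and Il7r were named as checks of the labels. Alternatives were other scalings, pseudocounts of 1 and 64, other filters, the mean of all probe sets, a fit of the groups compared alone, a replicate block and leaving out each array.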

Additional observations from a re-analysis of the deposited data

How the results depend on the processing

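Over all members and settings, 4133 log2 changes kept their side of the threshold, 83 lost a call and 58 gained one. No called value changed sign, and 171 of the 4133, called in neither fit, did. Counts of genes past the threshold ran from 88 to 114 with age when 1 array was left out (176 with all), were 93 with young replicates 2 and 3 averaged, and were 994, with 6 members, in a fit of just the 6 arrays compared. Between mutator and mid-aged wild-type HSC the leave-one-out counts ran from 0 to 222. From young to mid-aged wild-type HSC they ran from 2043 to 4161, with 4 to 11 members, and were 2031, with 5 members, with the young pair averaged. For the difference of effects they ran from 26 to 148, with 0 or 1 member, and were 38 with the young pair averaged; 1 member, Slc40a1, passed under quantile normalization, under the 60th percentile filter and with trended, robust eBayes. With the groups compared alone, 13 members passed in Ly6D- CLP, where 29.3% of all genes did, no gene passed between the CLP groups, and 1733 genes and 9 members passed in CLP against mid-aged wild-type HSC. Between the CLP groups the leave-one-out counts ran from 307 to 752 genes and from 0 to 2 members, and 1 member passed with a pseudocount of 64 (Urod), with trended, robust eBayes (Car2) and without mid-aged wild-type replicate 3 in the fit (Car2). The labels state the groups and no batch, so the replicate numbers were not taken to pair the samples in the main fits. Same-numbered arrays of a pair of groups had correlations of deviations from -0.06 to 0.51, and 10 of 18 arrays were most like their own number in the other group. Whether arrays of the same number share a batch was not tested. With the replicate number as a block, 3395 genes and 10 members passed from young to mid-aged wild-type HSC (3258 and 9 without it). The averaged pair and the fits without mid-aged wild-type replicate 3 or Ly6D- CLP replicate 2 were chosen after seeing the data, and the cause of these changes was not tested. Values near the 40th percentile, such as those of Alas2, Slc4a1 and Aqp1, are limited by signal over background.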
